A study of Mus musculus with 3 samples.

Results

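The genes described here are the 10 genes of MHC class II antigen presentation that were listed for this description and matched by symbol among the 31053 genes of the count matrix. All 10 were found. They encode the classical class II chains (H2-Aa, H2-Ab1 and H2-Eb1), the invariant chain (Cd74), the peptide editor H2-DM (H2-DMa, H2-DMb1 and H2-DMb2), its inhibitor H2-O (H2-Oa and H2-Ob) and the class II transactivator (Ciita). The list was chosen with earlier results of these data known.

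The cells came from spleens of C57BL/6 mice. Groups are named here as the hashtag antibodies name them, with LBH read as panobinostat, an inhibitor of histone deacetylases, and D5W read as its vehicle. There were 2 leukemia panobinostat samples, 1 WT panobinostat sample, 2 leukemia vehicle samples and 1 WT vehicle sample, and the agent had been given for 2 days. The hashtag names write the leukemia as AML. Dendritic cells (DCs) were enriched on an Optiprep gradient, by sorting away GFP-positive cells and by magnetic depletion, and the 6 hashed samples shared 1 capture (10x 3′ v3). It is not stated if each hashed sample is 1 mouse or a pool, nor how the leukemia was induced, so p-values across them measure the spread between these samples. WT had 1 sample per treatment.

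A class II molecule is a pair of an alpha and a beta chain that shows peptides from endosomes to CD4 T cells. In the endoplasmic reticulum the pair binds the invariant chain, whose remnant stays in the peptide groove until H2-DM exchanges it for another peptide. H2-O binds H2-DM and restrains it. Transcription of these genes depends on the transactivator CIITA, which is recruited by factors bound to the X and Y boxes of their promoters. Dendritic cells and B cells are among the cells that carry class II at rest, and DCs are known to take up less antigen and make less class II as they mature.

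After filtering, 19430 cells carried exactly 1 hashtag (1888 to 5859 per hashed sample) with a median of 6095.5 unique molecular identifiers (UMIs, each standing for 1 captured RNA molecule). Cells were clustered without the 10 genes, and clusters were named from marker genes, with the ending "-like" because only RNA clusters support the names. The pDC-like class (plasmacytoid DC, 3052 cells) raised 8 of 8 pDC markers in its main cluster, led by Cox6a2, Siglech and Klk1. The cDC1-like class (conventional DC type 1, 2836 cells) raised 9 of 9 in its main cluster, and the B cell-like class (352 cells), led by Ighg3 and Jchain, also 9 of 9. The cDC2-like class (3621 cells) raised only 5 of 9 markers in each of its clusters. The mature DC-like class (3817 cells) held 6 clusters with 6 to 9 of 9. Leukemia vehicle 2 stood apart, with the highest median UMIs per cell (13073, against 5265.5 to 7203 in the others), the fewest UMIs of its own hashtag (median 94, against 376 to 823) and 996 of the 1278 erythroid-like cells. WT panobinostat held 36 pDC-like cells, against 170 to 1297 in the other samples.

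Erythroid-like cells should lack class II, and their leading genes were cell-cycle genes such as Hmmr and Ube2c. They gave 1 measure of class II UMIs in cells not thought to make them. They averaged 490 ± 295 CPM (UMIs scaled to the same total per sum) of H2-Aa, 1248 ± 855 CPM of Cd74 and 9.64 ± 3.91 CPM of Ciita (SD over the 6 hashed samples, as for all levels below unless another n is given). Per sample, erythroid-like H2-Aa was 368, 334 and 775 CPM in leukemia panobinostat 1, leukemia panobinostat 2 and WT panobinostat, and 378, 159 and 929 CPM in leukemia vehicle 1, leukemia vehicle 2 and WT vehicle. Small clusters outside the DC-like and B cell-like classes gave higher pooled H2-Aa, with 1312 CPM in the endothelial cluster (86 cells), 1494 CPM in the platelet cluster (49 cells) and 1737 CPM in the basophil or mast cell cluster (22 cells), against 1959 CPM pooled in B cell-like cells. The erythroid-like values are therefore no upper limit, and the part of RNA from other cells in the B cell-like levels was not tested. Erythroid-like H2-Aa was higher in both WT samples than in each leukemia sample. The 6 samples shared 1 capture and so the same free RNA, and the source of this difference was not tested. Its part in the comparisons of leukemia with WT below was not tested either. Counts of the 3′ chemistry were not scaled by gene length, so levels are compared between classes and samples and not between genes.

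CIITA is recruited to class II promoters through X and Y boxes. Promoter sequences are shown for the 5 genes where the letters of both boxes were found at the spacing below, and for H2-DMb2, the neighbour of H2-DMb1. All 6 hold the letters of the Y box, and 5 hold those of an X box core 20 to 40 bases before it. Each runs 5′ to 3′ on the gene's own strand (RefSeq, GRCm38.p6, all on chromosome 17), and capitals mark GNAAC, a core of the X box, and GATTGG, the Y box.
H2-Oa: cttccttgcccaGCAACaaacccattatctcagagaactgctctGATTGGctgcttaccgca
H2-DMb1: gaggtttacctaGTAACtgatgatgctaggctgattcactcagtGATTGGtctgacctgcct
H2-DMb2: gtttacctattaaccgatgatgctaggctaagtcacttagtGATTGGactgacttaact
H2-Ob: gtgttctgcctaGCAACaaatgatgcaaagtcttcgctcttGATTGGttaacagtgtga
H2-Aa: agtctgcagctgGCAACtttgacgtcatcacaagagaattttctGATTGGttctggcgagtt
H2-Eb1: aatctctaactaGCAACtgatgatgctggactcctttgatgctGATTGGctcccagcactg

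The stretches are 34092291 to 34092352 (H2-Oa), 34153085 to 34153146 (H2-DMb1), 34145117 to 34145175 (H2-DMb2), 34238806 to 34238864 (H2-Ob), 34305764 to 34305824 (H2-Eb1), all on the plus strand, and 34287855 to 34287916 on the minus strand (H2-Aa). GNAAC followed on the gene strand by GATTGG, with 20 to 40 bases between, was found in 5 of these 6 promoters, with 24 to 27 bases between and GNAAC starting 76 to 94 bases before the start that the RefSeq promoter table uses, which differs from the GENCODE gene start for some genes. Over the 32851 promoters of the same length (250 bases before the start to 50 after) the pair stood on the gene strand in 0.581% and on either strand in 1.17%. Singly, GATTGG was found on either strand in 16.1% and GNAAC in 84.8%. H2-DMb2 holds the Y box with no GNAAC at that spacing. At the place of GTAAC in H2-DMb1, also 27 bases before GATTGG, it reads TTAAC, which differs in the first letter only. The exact pattern leaves such a near match out, and whether it serves as an X box was not tested. Neither of the 2 promoters listed for H2-DMa holds the pair. The patterns were written down after these promoters had been read. All promoters shown but that of H2-DMb2 were picked because they hold the pair, so 5 of 6 is set by that choice and is a description. The promoters of H2-Ab1, Cd74 and Ciita are not described here.

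In GRCm38 (GENCODE vM21 annotation) the class II region of chromosome 17 holds 8 of the 10 genes. In order along it lie H2-Oa (34092340 to 34095234), H2-DMa (34119541 to 34139101), H2-DMb2 (34143307 to 34151555) and H2-DMb1 (34153072 to 34160230). H2-Ob (34238903 to 34254414), H2-Ab1 (34257689 to 34269419), H2-Aa (34282744 to 34287823) and H2-Eb1 (34305867 to 34316674) follow. All 8 are on the plus strand except H2-Aa. Ciita lies on chromosome 16 (10480059 to 10528418) and Cd74 on chromosome 18 (60803848 to 60812652), both on the plus strand. Ciita overlaps Dexi, H2-DMa overlaps Brd2, H2-Oa overlaps BC051537 and H2-Eb1 overlaps Gm20513, each on the opposite strand. H2-DMa also overlaps CR974462.3, and Cd74 Mir5107, on the same strand, and how the counting treated strand is not given in the sources used here.

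The classical chains were on average most abundant in cDC1-like cells and least abundant in B cell-like cells, whose values overlapped those of mature DC-like cells for H2-Ab1 and of pDC-like cells for H2-Eb1. H2-Aa, the alpha chain of I-A, averaged 3795 ± 469 CPM in pDC-like, 8552 ± 340 among cDC1-like, 7327 ± 694 in cDC2-like, 4227 ± 514 in mature DC-like and 2102 ± 461 CPM in B cell-like cells. H2-Ab1, the I-A beta chain, averaged 3219 ± 336, 9776 ± 229, 7326 ± 435, 2629 ± 396 and 2009 ± 429 CPM in the same classes, and H2-Eb1, the I-E beta chain, 2022 ± 230, 8316 ± 384, 7139 ± 721, 3824 ± 495 and 1805 ± 315 CPM. The 6 values of cDC1-like and cDC2-like cells overlapped for H2-Aa and H2-Eb1 but not for H2-Ab1 (9470 to 10032 CPM, against 6876 to 7913 CPM). Mature DC-like and pDC-like cells overlapped for H2-Aa and H2-Ab1, while for H2-Eb1 the mature cells (3209 to 4430 CPM) lay above the pDC-like cells (1742 to 2381 CPM) in every sample.

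**Figure D1:**
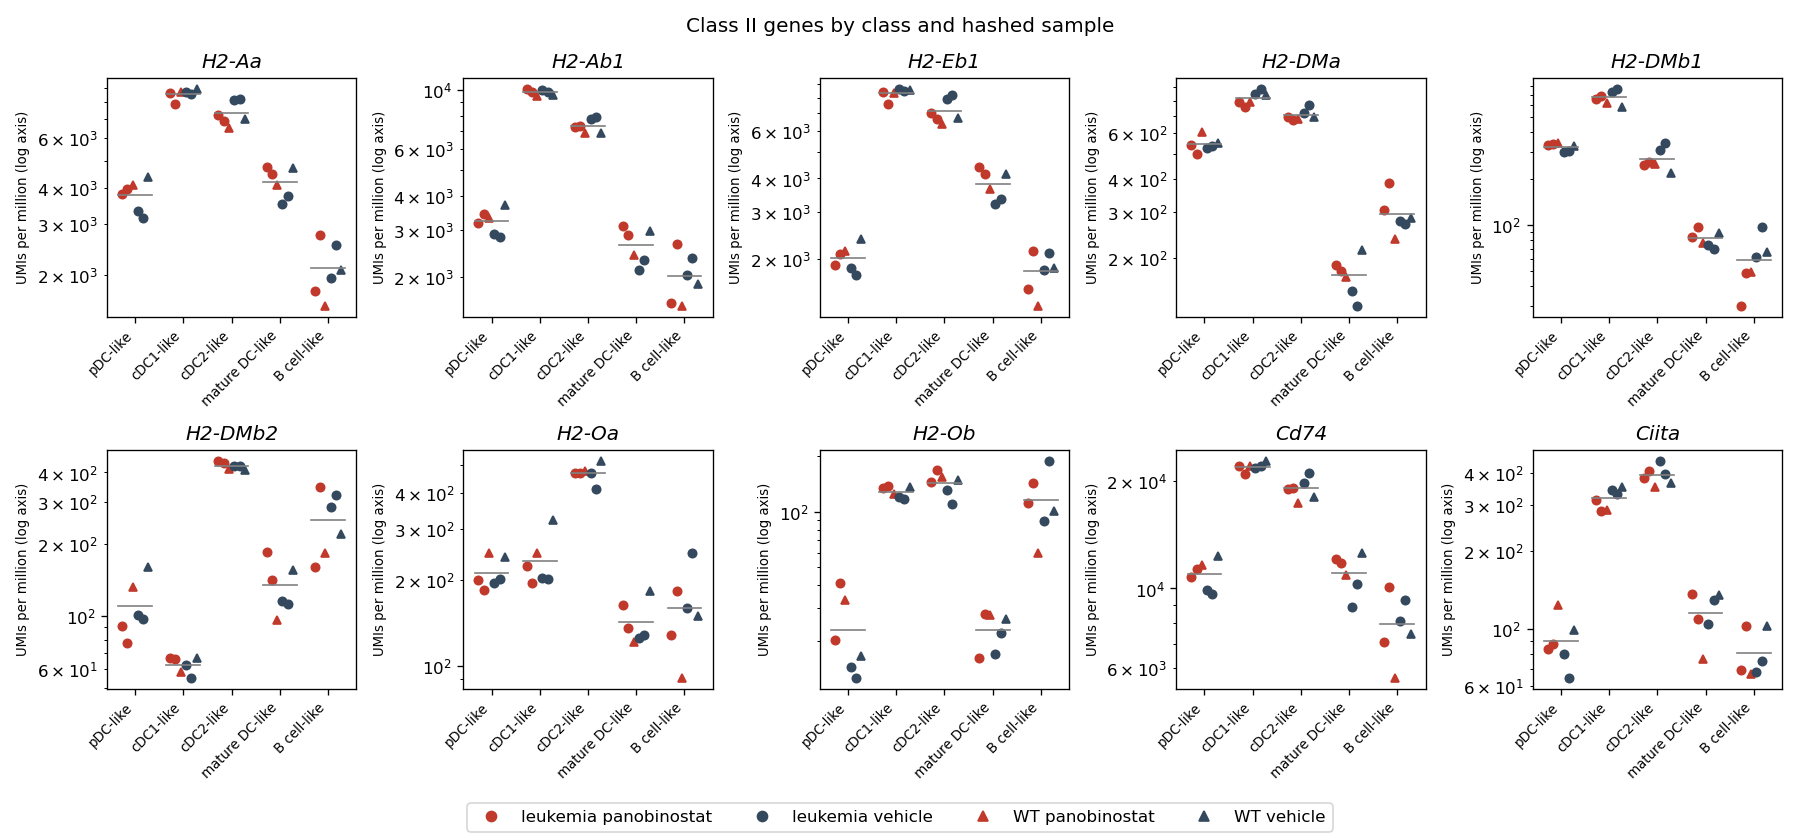
CPM (log axis) of each class II gene in 5 classes, with 1 point per hashed sample, coloured by treatment and shaped by disease state, and a bar at the mean of the 6 samples. The chains, Cd74 and Ciita are lowest in pDC-like, mature DC-like and B cell-like cells, whereas H2-DMb2 is lowest in cDC1-like cells at 55.1 to 67.2 CPM.

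Cd74, the invariant chain, followed the chains. It averaged 10947 ± 1051 CPM in pDC-like, 21855 ± 585 among cDC1-like, 19027 ± 1294 in cDC2-like, 11057 ± 1350 in mature DC-like and 7946 ± 1607 CPM in B cell-like cells. Together the 10 genes took 2.13% of all UMIs in pDC-like, 5.07% among cDC1-like, 4.32% in cDC2-like, 2.24% in mature DC-like, 1.48% in B cell-like and 0.279% in erythroid-like cells.

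Classes were compared with edgeR's quasi-likelihood test on UMIs summed per class and hashed sample, with the hashed sample as a block and Benjamini-Hochberg adjustment over 10986 genes. A gene was called at an adjusted p under 0.05 and a fitted change of 1.5-fold or more. The fit scales each sum by the trimmed mean of M-values (TMM), which differs from CPM between classes. Plain CPM would put the median of all genes between −0.43 (log2, B cell-like against pDC-like) and 0.30 (pDC-like against cDC1-like), so the fold changes below are relative to the bulk of genes. The sign of a member differed between the scalings only for H2-Ob in cDC1-like against cDC2-like cells and for H2-Eb1 and Ciita in B cell-like against pDC-like cells, none of which was called. The side of the 1.5-fold limit on which a member falls also depends on the scaling, and such cases are given below for some members.

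Set against cDC1-like cells, pDC-like cells had 8 of the 10 genes called lower and 0 higher (44.9% of all genes tested were called in this comparison), with a median log2 fold change of −1.55 against 0.01 for all genes. The same count against cDC2-like cells was 8 lower and 0 higher, with a background of 40.9% called and a median of −1.36 against 0.00. H2-Eb1 was 5.56-fold lower in pDC-like cells relative to cDC1-like cells (log2 −2.47, SE 0.10, adjusted p 1.75e-23 by edgeR) and lower in 6 of 6 samples. H2-Ab1 was 4.10-fold lower (log2 −2.04, SE 0.09, adjusted p 2.85e-21) and H2-Aa 3.05-fold lower (log2 −1.61, SE 0.10, adjusted p 1.97e-17). Against cDC2-like cells the H2-Eb1, H2-Ab1 and H2-Aa log2 fold changes were −1.997, −1.36 and −1.13, all called.

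H2-Eb1 RNA was low in pDC-like cells also relative to H2-Aa RNA. These counts do not show whether any class made I-E protein, and H2-Ea-ps was not analysed here. The ratio of H2-Eb1 to H2-Aa UMIs was 0.534 ± 0.0231 in pDC-like cells, against 0.974 ± 0.0103 in cDC2-like cells, and the 6 values of one class did not meet those of the other (highest 0.562, lowest 0.962). The ratio was 0.972 among cDC1-like, 0.904 in mature DC-like and 0.865 in B cell-like cells. An exact paired sign-flip test over the 6 samples, two-sided, gave p = 0.0312 for pDC-like minus cDC2-like cells, the smallest p that 6 samples allow, and 0.0446 after adjustment over the 10 ratio tests made. These ratios were chosen after their values had been seen.

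The beta chain of the peptide editor H2-DM comes from a pair of neighbouring genes, whose class orders differed. H2-DMb1 averaged 322 ± 18.1 CPM in pDC-like, 673 ± 66.2 among cDC1-like, 269 ± 44.8 in cDC2-like, 81.8 ± 10.3 in mature DC-like and 59.1 ± 22.8 CPM in B cell-like cells. H2-DMb2 ran another way, with 110 ± 31.1, 62.8 ± 4.96, 427 ± 14.2, 135 ± 33.0 and 254 ± 75.9 CPM in the same classes. In cDC1-like cells H2-DMb1 ranged from 584 to 761 CPM (median 671) and H2-DMb2 from 55.1 to 67.2 CPM. In cDC2-like cells H2-DMb1 ranged from 218 to 339 CPM and H2-DMb2 from 409 to 446 CPM, so neither gene overlapped between the 2 conventional classes.

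With cDC1-like set against cDC2-like cells, 2 of the 10 genes were called higher (H2-DMb1 and H2-Ab1) and 2 lower (H2-DMb2 and H2-Oa), with 33.7% of all genes called. H2-DMb1 was higher by a log2 fold change of 1.59 (SE 0.09, adjusted p 1.88e-17 by edgeR), and H2-DMb2 was lower with −2.51 (SE 0.13, adjusted p 4.06e-19). H2-Ab1 was higher by 0.67, which fell short of the fold limit with doublets kept (0.51) and by CPM (0.42), and H2-Oa was lower with −0.77. The other 6 genes lay within 1.5-fold, and Ciita itself differed by −0.04.

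As a share of both genes' UMIs, H2-DMb1 made up 91.4 ± 1.20% among cDC1-like, 74.8 ± 5.04% in pDC-like, 38.4 ± 3.79% in cDC2-like, 38.2 ± 4.43% in mature DC-like and 18.9 ± 4.45% in B cell-like cells. The share was 52.97 percentage points higher in cDC1-like than in cDC2-like cells and 36.4 points higher in pDC-like than in cDC2-like cells, and in B cell-like cells it was 19.5 points lower than in cDC2-like cells, each in 6 of 6 samples (exact paired sign-flip test, two-sided, p = 0.0312, adjusted 0.0446). Mature DC-like and cDC2-like cells differed by −0.188 points (SD of the paired difference 5.04, n = 6, exact p = 0.938). Both averages join unlike clusters. H2-DMb1 had more UMIs than H2-DMb2 in mature clusters 4 (354 against 218) and 17 (57 against 37). It had fewer in clusters 6 (526 against 1244), 8 (154 against 242), 9 (254 against 352) and 19 (209 against 555). In cDC2-like clusters 0 and 14 the UMIs were 3716 against 7325 and 1138 against 981. The share in mature DC-like cells moved to 59.7% when doublets were kept. In H2-DMb1's last 500 transcript bases, 92 of 451 stretches of 50 bases (20.4%) also occur in H2-DMb2 transcripts, and 0 of 457 the other way, so reads from that part of H2-DMb1 could be split or dropped and the levels are uncertain to that extent.

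**Figure D2:**
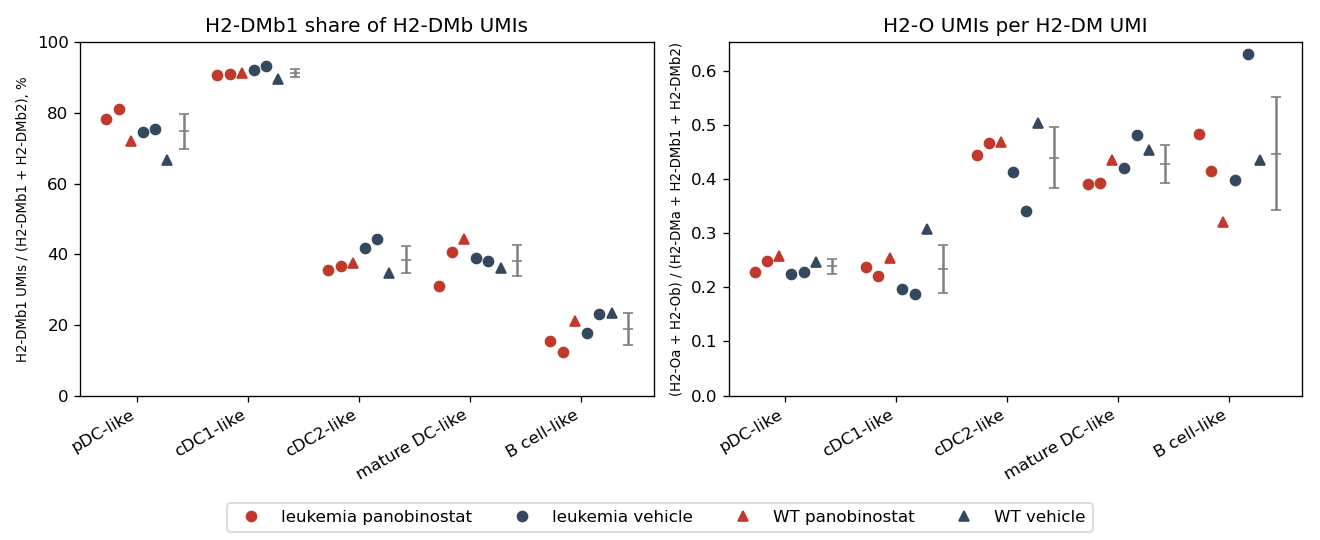
The left plot gives H2-DMb1 UMIs as a percentage of H2-DMb1 and H2-DMb2 UMIs, and the right plot H2-O UMIs per H2-DM UMI, in 5 classes with 1 point per hashed sample and the mean with SD in grey (n = 6). cDC1-like cells sit at 89.7 to 93.2% and cDC2-like cells at 34.8 to 44.4% in the left plot.

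The alpha chain of the editor, H2-DMa, averaged 544 ± 36.2 CPM in pDC-like, 818 ± 48.2 among cDC1-like, 706 ± 36.0 in cDC2-like, 172 ± 29.7 in mature DC-like and 294 ± 51.1 CPM in B cell-like cells. H2-DMa, H2-Oa and H2-Ob had their lowest class means in mature DC-like cells, where the values of H2-Oa and H2-Ob overlapped those of the next class. The 6 mature values of H2-DMa (131 to 215 CPM) lay below all B cell-like values (236 to 387 CPM).

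The inhibitor H2-O followed cDC2-like cells for its alpha chain. H2-Oa averaged 211 ± 25.8 CPM in pDC-like, 232 ± 47.9 among cDC1-like, 470 ± 33.0 in cDC2-like, 143 ± 24.4 in mature DC-like and 160 ± 53.0 CPM in B cell-like cells. H2-Ob, its beta chain, averaged 23.1 ± 11.6, 129 ± 8.89, 143 ± 20.02, 22.9 ± 5.27 and 115 ± 44.5 CPM in the same classes. H2-Ob was thus low in both pDC-like and mature DC-like cells, whose values overlapped, and in pDC-like cells it differed by −3.17 from cDC1-like and by −3.06 from cDC2-like cells (log2, both called).

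Per UMI of H2-DM (all 3 genes), H2-O UMIs numbered 0.239 in pDC-like, 0.234 among cDC1-like, 0.440 in cDC2-like, 0.429 in mature DC-like and 0.447 in B cell-like cells. The ratio was lower in cDC1-like than in cDC2-like cells by a difference of −0.206, and in pDC-like cells by −0.201, each in 6 of 6 samples (exact paired sign-flip test, p = 0.0312, adjusted 0.0446). Mature DC-like and B cell-like cells differed from cDC2-like cells by −0.0113 (SD 0.0789) and 0.00727 (SD 0.152), with exact p of 0.812 and 0.938 over 6 samples. The summed ratio joins chains that went opposite ways. H2-Oa UMIs per H2-DMa UMI averaged 0.668 in cDC2-like, 0.837 in mature DC-like and 0.548 in B cell-like cells. For H2-Ob the averages were 0.204, 0.135 and 0.393 in the same classes. The ratios of single chains were not tested.

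Ciita, the transactivator, was most abundant in cDC2-like cells. It averaged 89.7 ± 20.1 CPM in pDC-like, 319 ± 28.1 among cDC1-like, 391.6 ± 32.2 in cDC2-like, 115 ± 23.3 in mature DC-like and 80.7 ± 17.1 CPM in B cell-like cells. The lowest cDC1-like value (286 CPM) lay above the highest value of the pDC-like (124 CPM), mature DC-like (137 CPM) and B cell-like cells (103 CPM), and these 3 classes overlapped. Unnamed clusters 7, 15 and 10 (725, 390 and 526 cells), whose closest class was cDC1, are outside these classes. Pooled Ciita was 60.6, 63.5 and 226 CPM in them, with 9137, 6263 and 6974 CPM of H2-Aa. Unnamed clusters 12 and 18 (492 and 192 cells), whose closest class was pDC, are outside as well. They had 261 and 65.9 CPM of Ciita, with 7389 and 3609 CPM of H2-Aa. In unnamed cluster 11 (517 cells, closest class cDC2) Ciita was 272 CPM and H2-Aa 4912 CPM. Ciita was 5.11-fold lower in pDC-like cells relative to cDC1-like cells (log2 −2.35, SE 0.11, adjusted p 2.94e-21 by edgeR).

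Per cell, thinned to 2000 UMIs, a Ciita UMI was found in 15.9% of pDC-like, 48.0% of cDC1-like, 53.1% of cDC2-like, 18.8% of mature DC-like and 18.9% of B cell-like cells, against 0.940% of erythroid-like cells (0 to 4.35% per hashed sample). Unthinned, the shares were 34.6, 93.1, 82.0, 28.7, 38.4 and 7.90% at median depths of 5192.5, 11989, 5168, 4409, 4613.5 and 18923.5 UMIs in the same order. An H2-DMb2 UMI was found in 11.7% of thinned cDC1-like cells and in 56.6% of thinned cDC2-like cells, against 0.549% of erythroid-like cells (0 to 5.41% per hashed sample). H2-Aa was found in 91.2 to 99.96% of thinned cells of the 5 classes, against 30.3% of erythroid-like cells. Leukemia vehicle 2, with 996 of the 1276 thinned erythroid-like cells, had 24.3%, and the other samples had 32.6 to 63.5%, so the presence of H2-Aa in a cell says less than its level. Thinning left out 33 cDC1-like, 35 pDC-like, 100 cDC2-like, 291 mature DC-like, 13 B cell-like and 2 erythroid-like cells.

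In mature DC-like cells 9 of the 10 genes were called lower than in cDC2-like cells and 0 higher (43.4% of all genes called), with a median log2 fold change of −1.47 against −0.02 for all genes. Cd74 missed the fold limit with −0.58 (−0.79 by CPM). Within the class, cluster 6 did not share the lower H2-Aa and H2-Eb1 when set beside cDC2-like cluster 0, as given below. H2-Ob fell by 2.45, H2-DMa by 1.82, Ciita by 1.58, H2-Oa by 1.52, H2-DMb1 by 1.47 and H2-DMb2 by 1.46 on the log2 scale, against 1.28 for H2-Ab1, 0.70 for H2-Eb1 and 0.59 for H2-Aa. With doublets kept 5 of the 9 calls held, and H2-Aa (−0.30), H2-Ab1 (−0.58), H2-Eb1 (−0.38) and H2-DMb1 (−0.23) were no longer called. Against cDC1-like cells 9 were called lower and H2-DMb2 higher (1.05), with a background of 51.4% called, and H2-DMb1 fell by 3.06.

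The other pathway genes measured were 20 genes for loading, turnover, promoter factors and regulators of Ciita. In mature DC-like against cDC2-like cells 9 of them were higher, 1 lower and 10 not called. Against cDC1-like cells 12 were higher, 3 lower and 5 not called. Of all genes 43.4% and 51.4% were called, and their split by direction is not given here, so these counts are a description. March1, a ubiquitin ligase that removes class II from the surface, averaged 12.2 CPM in mature DC-like cells, against 122 CPM in cDC2-like cells (log2 −3.16, SE 0.15, adjusted p 2.16e-20 by edgeR). Cd83, which protects class II from MARCH1, averaged 448 CPM in mature DC-like cells, against 72.9 CPM in cDC2-like cells (log2 2.84, SE 0.14, adjusted p 6.77e-20). H2-Eb2, a further class II beta gene, averaged 123 CPM in mature DC-like and 62.8 CPM in cDC2-like cells (log2 1.20). Irf1, Irf8 and Prdm1, factors that act on Ciita, were also higher, by 2.72, 2.35 and 3.24.

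Of the 20 pathway genes in pDC-like cells, 5 were called up and 5 down relative to cDC1-like cells, and 3 up and 7 down relative to cDC2-like cells. These 10 of 20 in each stand beside 44.9% and 40.9% of all genes called. Ctsl, the gene of the protease cathepsin L, averaged 1754 CPM in pDC-like cells and was higher than in cDC1-like cells by 7.06 (log2, SE 0.15). Spi1, the gene of the factor PU.1, averaged 91.7 CPM in pDC-like cells, against 379 CPM in cDC1-like and 539 CPM in cDC2-like cells. Between cDC1-like and cDC2-like cells the count was 4 up and 8 down, beside 33.7% of all genes called. Irf8 was higher by 4.65 and Irf4 lower with −3.71, both known regulators of DC types.

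B cell-like cells had 9 of the 10 genes called lower than cDC2-like cells and 0 higher (34.7% of all genes called), with a median log2 fold change of −1.63 against −0.05 for all genes. H2-Ob was the exception with −0.36. Ciita was lower by −2.18 and H2-DMb1 by −2.09. Against pDC-like cells 2 were higher and 2 lower (36.4% called). H2-Ob was higher by 2.69 and H2-DMb2 by 1.47, while H2-DMb1 was lower with −2.19 and H2-DMa with −0.61. H2-DMa was not called by DESeq2 (−0.55), without WT panobinostat (−0.55) or without WT vehicle (−0.58). The 3 chains and Cd74 differed by −0.57 to 0.12 and were not called. By CPM they differed by −0.87 (H2-Aa), −0.70 (H2-Ab1), −0.18 (H2-Eb1) and −0.48 (Cd74), so H2-Aa and H2-Ab1 lay past the fold limit on that scale. Of the pathway genes, 5 were higher and 5 lower against cDC2-like cells, and 6 higher and 5 lower against pDC-like cells, beside 34.7% and 36.4% of all genes called.

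Across the 30 sums of class and hashed sample, the summed level of the 3 chains had a Pearson correlation (log2 CPM + 1) of 0.99 with Cd74, 0.94 with Ciita, 0.78 with H2-DMb1, 0.68 with H2-DMa, 0.66 with H2-Oa, 0.45 with H2-Ob and −0.12 with H2-DMb2. Among 6858 genes of 10 CPM or more outside the 10, those most like the chains were Arpc2, 1700025G04Rik, Cdk14, Ccdc102a and Ckb (0.93 each). Those most like Ciita were Lrrc25 and Rgs2 (0.96 each), then Tmem131, Fam105a and Tgfbi (0.95 each). The points share samples and 1 capture, and 5 classes set most of their spread, so the values are descriptions. Unnamed clusters, some with high H2-Aa and low Ciita as given above, are not among the sums.

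Within classes, clusters differed. Among mature DC-like cells, pooled H2-Ab1 was 5191 CPM in cluster 6 (led by Dkk2 and Crispld2) and 3869 CPM in cluster 19 (led by Gal and Clic3). It was 1615 CPM in cluster 4 (led by Prph and Arc), 1920 CPM in cluster 8 (led by Lta), 2231 CPM in cluster 9 (led by Clu and Ccl17) and 2574 CPM in cluster 17. Ciita followed, with 272 CPM in cluster 6 and 330 CPM in cluster 19, against 20.9 to 91.6 CPM in the other 4. In the cDC2-like class, cluster 14 (led by Ifit3 and Clec4a3) had 10132 CPM of H2-Aa and cluster 0 (led by Mmp9) 6668 CPM. Mature cluster 6 (1048 of 3817 cells) had 7427 CPM of H2-Aa, 6698 CPM of H2-Eb1 and 17995 CPM of Cd74. In cDC2-like clusters 0 and 14, H2-Eb1 was 6477 and 9733 CPM and Cd74 17789 and 24056 CPM. The other mature DC-like clusters had 2720 to 5181 CPM of H2-Aa.

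For treatment, UMIs were summed per hashed sample within each class and panobinostat was compared with vehicle with disease state as a covariate. None of the 10 genes passed an adjusted p of 0.05 in any of the 5 classes by edgeR, where 0.341% of all genes passed in pDC-like, 0.931% among cDC1-like, 0.712% in cDC2-like, 0.213% in mature DC-like and 0.0483% in B cell-like cells. DESeq2 called 0 as well. At an unadjusted p under 0.05, 5 were higher in pDC-like, 2 lower in cDC1-like, 1 higher and 2 lower in cDC2-like, 4 higher in mature DC-like and 1 lower in B cell-like cells. The 0 calls at an adjusted p of 0.05 by edgeR changed when a sample was left out, and the counts that follow are such calls. Without WT panobinostat 4 were higher in pDC-like, 2 lower in cDC2-like and 4 higher in mature DC-like cells, and without WT vehicle the counts were 3, 2 and 4. Without leukemia panobinostat 1 there was 1 higher in pDC-like cells.

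The 95% intervals are for a treatment effect taken as the same in leukemia and WT. They do not bound the change within either disease state. In cDC1-like cells they ran from −0.33 to 0.27 (log2) over the 10 genes, in cDC2-like cells from −0.33 to 0.51, in mature DC-like cells from −0.50 to 0.64, in pDC-like cells from −0.40 to 1.35 and in B cell-like cells from −1.43 to 0.54. In cDC1-like cells H2-Ab1 was 10032, 9790 and 9470 CPM in leukemia panobinostat 1, leukemia panobinostat 2 and WT panobinostat, and 10002, 9809 and 9551 CPM in leukemia vehicle 1, leukemia vehicle 2 and WT vehicle. The treated and vehicle values overlapped. On simulated counts with 2-fold changes the same fit recovered 88.3% of them in cDC1-like and 29.3% in B cell-like cells. Those changes were set in genes drawn at random, so the rates are not specific to the 10 genes.

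**Figure D3:**
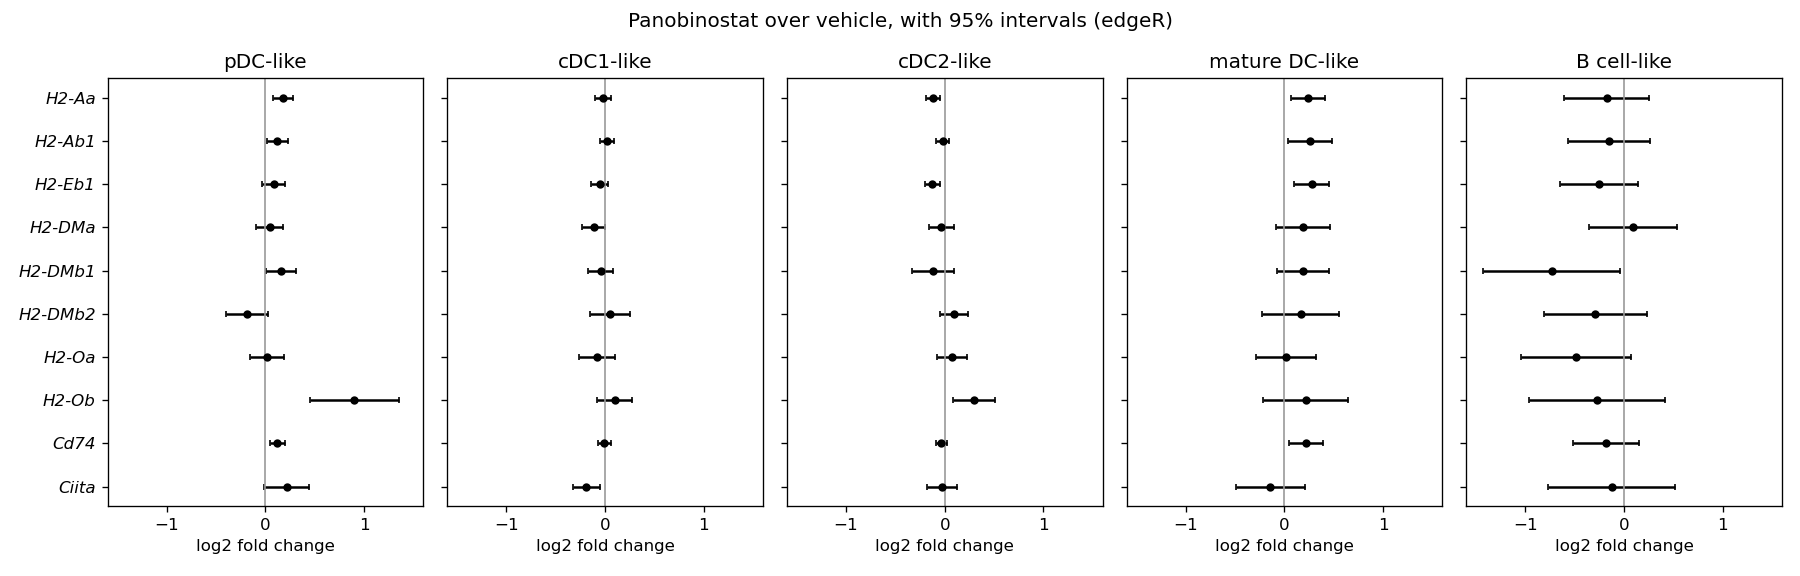
Log2 fold change of each class II gene, panobinostat over vehicle, in 5 classes, as points with 95% intervals from edgeR (6 hashed samples each). In cDC1-like cells the intervals lie between −0.33 and 0.27, and the farthest value is H2-Ob in pDC-like cells at 0.90.

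H2-Ob in pDC-like cells came closest to the threshold. It was 20.3, 41.2 and 33.3 CPM in leukemia panobinostat 1, leukemia panobinostat 2 and WT panobinostat, and 14.4, 12.6 and 16.7 CPM in leukemia vehicle 1, leukemia vehicle 2 and WT vehicle. The groups did not overlap, but the WT panobinostat value rests on 7 UMIs in 36 cells. The log2 fold change was 0.90 (SE 0.22, 95% interval 0.45 to 1.35, adjusted p 0.0671 by edgeR).

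Of the other pathway genes, Lgmn, which encodes the endosomal protease legumain, was higher with panobinostat in cDC1-like cells (0.77, adjusted p 0.00724), and no other of the 18 to 20 tested in the 4 DC-like classes or the 13 tested in B cell-like cells passed.

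Leukemia samples were compared with WT samples in the same fits. In pDC-like cells 6 of the 10 genes were lower and 0 higher in leukemia (0.905% of all genes called). H2-DMb2 was 91.3, 77.1, 101 and 97.2 CPM in leukemia panobinostat 1, leukemia panobinostat 2, leukemia vehicle 1 and leukemia vehicle 2, and 133 and 161 CPM in WT panobinostat and WT vehicle. It fell by 0.71 on the log2 scale (SE 0.10, adjusted p 5.49e-05 by edgeR), with no overlap. H2-Aa was 3828, 3967, 3321 and 3159 CPM in the same leukemia samples, and 4119 and 4375 CPM in WT panobinostat and WT vehicle, a log2 fold change of −0.30 (SE 0.05, adjusted p 0.0011).

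H2-Eb1 fell by 0.30 (adjusted p 0.0056), H2-Ab1 by 0.24 (0.0225), Cd74 by 0.24 (0.000469) and Ciita by 0.45 (0.0475). For H2-Ab1 the groups overlapped, since leukemia panobinostat 2 (3421 CPM) lay above WT panobinostat (3315 CPM). The calls rest on single samples. Without WT vehicle 0 of the 10 were called, without leukemia vehicle 1 there was 1, without leukemia vehicle 2 or leukemia panobinostat 1 there were 3, and DESeq2 called 1. WT panobinostat adds 36 cells. H2-Aa in erythroid-like cells stood at 159 to 378 CPM in the leukemia samples and at 775 and 929 CPM in the WT samples. The part of such UMIs in these calls was not tested.

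In cDC1-like cells 4 of the 10 were lower in leukemia, where 11.5% of all genes were called. H2-Oa was 224, 195, 203 and 201 CPM in leukemia panobinostat 1, leukemia panobinostat 2, leukemia vehicle 1 and leukemia vehicle 2, and 249 and 321 CPM in WT panobinostat and WT vehicle. It fell by 0.58 (log2, SE 0.09, adjusted p 0.000292), and by 0.46 on the CPM scale. H2-Aa fell by 0.17 (adjusted p 0.0101), Cd74 by 0.16 (0.00394) and H2-Eb1 by 0.14 (0.0377). CPM scaling moves the median of all genes by 0.10 in this comparison and puts these 3 at −0.06, −0.05 and −0.03. DESeq2 called 1 of the 10, and without leukemia vehicle 2 there were 2.

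In cDC2-like cells H2-Aa and Cd74 were higher in leukemia (0.475% of all genes called). H2-Aa was 7226, 6893, 8113 and 8235 CPM in leukemia panobinostat 1, leukemia panobinostat 2, leukemia vehicle 1 and leukemia vehicle 2, and 6523 and 6975 CPM in WT panobinostat and WT vehicle. The groups overlapped, and the log2 fold change was 0.17 (SE 0.03, adjusted p 0.0372). Cd74 differed by 0.15 (adjusted p 0.0122). Cluster 14, with the high chain levels, held 16.0, 11.01, 20.8 and 23.6% of the cDC2-like cells in the same leukemia samples, against 9.74 and 5.42% in WT panobinostat and WT vehicle. With both clusters given equal weight the differences on the CPM scale were 0.09 for H2-Aa (0.17 on class sums) and 0.10 for Cd74 (0.15 on class sums). Without WT vehicle, leukemia vehicle 1 or leukemia panobinostat 1, and by DESeq2, 0 were called. Without leukemia vehicle 2 there was 1, and without WT panobinostat there were 5.

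For leukemia against WT at an unadjusted p under 0.05 by edgeR, 3 members were lower in mature DC-like and 5 higher in B cell-like cells. At an adjusted p under 0.05, neither mature DC-like (1.31% of all genes called) nor B cell-like cells (0% called) had a member called by edgeR or DESeq2. The counts that follow are of such calls. The count in mature DC-like cells went to 5 lower without WT panobinostat and to 1 higher without WT vehicle. That in B cell-like cells went to 3 higher without leukemia vehicle 1 and to 1 higher without WT vehicle. Among the other pathway genes, Irf4 was lower in leukemia in pDC-like cells (−0.93), and in cDC1-like cells Lgmn (−0.49), March1 (−0.25) and Cd83 (−0.66) were lower.

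Whether the treatment difference itself differed between leukemia and WT was tested with an interaction term, which has 2 residual degrees of freedom. In pDC-like cells 3 of the 10 genes were called (0.277% of all genes). H2-Aa was 3828 and 3967 CPM in leukemia panobinostat 1 and 2 against 3321 and 3159 CPM in leukemia vehicle 1 and 2, and 4119 CPM in WT panobinostat against 4375 CPM in WT vehicle. The difference of log2 fold changes, leukemia minus WT, was 0.40 for H2-Aa (SE 0.08, adjusted p 0.0068 by edgeR), 0.41 for H2-Ab1 (SE 0.09, adjusted p 0.0078) and 0.31 for Cd74 (SE 0.07, adjusted p 0.00777). The median over all genes was 0.11 and over the 10 genes 0.12. Without leukemia vehicle 1, without leukemia vehicle 2, with doublets kept, and by DESeq2 the count was 0. With doublets kept the values were 0.17, 0.10 and 0.06.

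In mature DC-like cells H2-DMb2 and H2-Ab1 were called (0.191% of all genes). H2-DMb2 was 186 and 143 CPM in leukemia panobinostat 1 and 2 against 116 and 113 CPM in leukemia vehicle 1 and 2, and 96.9 CPM in WT panobinostat against 157 CPM in WT vehicle. The difference was 1.16 (SE 0.22, adjusted p 0.0246) for H2-DMb2 and 0.66 (SE 0.13, adjusted p 0.0294) for H2-Ab1. At an unadjusted p under 0.05, 8 of the 10 were higher. DESeq2 called 0, without leukemia panobinostat 1 there was 1, and without leukemia vehicle 1 and 2 there were 5 and 7.

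At an unadjusted p under 0.05 by edgeR, 3 were higher and 1 lower in cDC1-like cells, 4 lower in cDC2-like cells and 0 in B cell-like cells. At an adjusted p under 0.05 no member was called in cDC1-like (0.313% of all genes), cDC2-like (0.299%) or B cell-like cells (0.353%), and DESeq2 called 0. The counts that follow are of such calls. The count was 1 in cDC1-like cells without leukemia panobinostat 2 and 1 in cDC2-like cells without leukemia vehicle 1 and without leukemia vehicle 2. On simulated 2-fold interactions the fit recovered 6.25% in pDC-like, 12.2% in mature DC-like and 0.535% in B cell-like cells. Of the pathway genes Lgmn was called in cDC2-like cells (−1.20, adjusted p 0.0407).

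**Figure D4:**
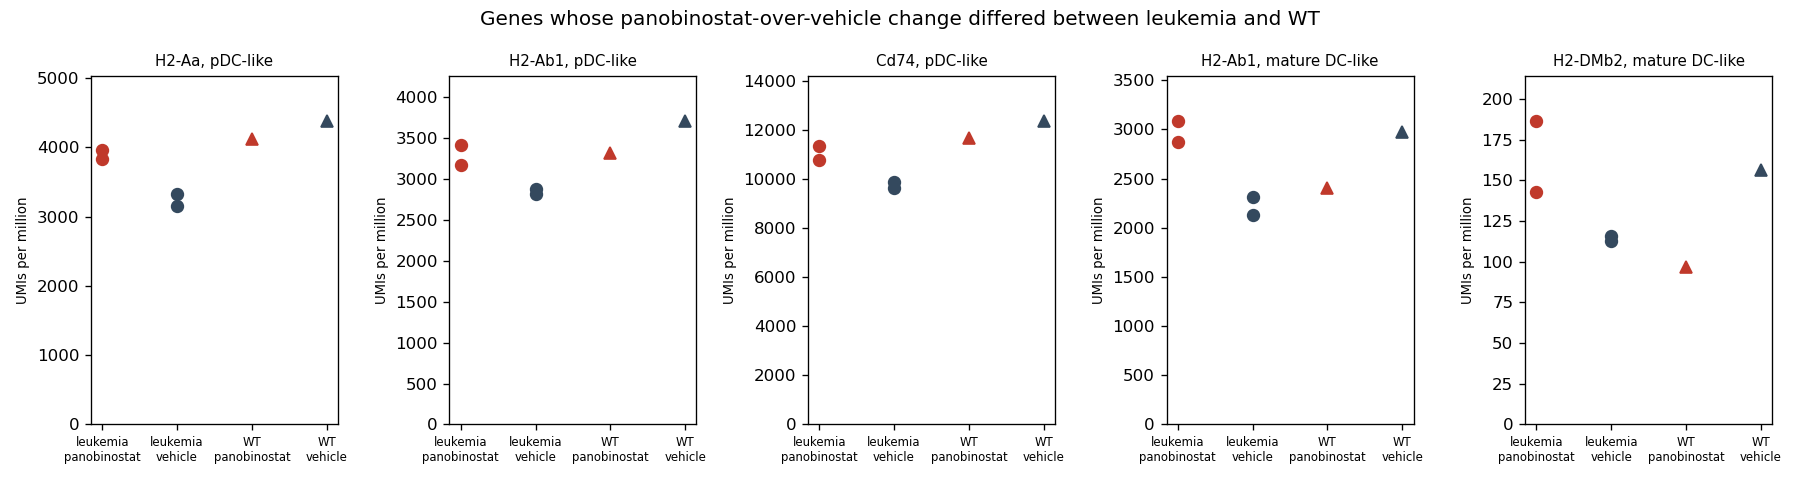
CPM in each hashed sample for the 5 genes and classes called for the interaction, with leukemia samples as circles and WT samples as triangles. In each plot both leukemia panobinostat samples lie above both leukemia vehicle samples, and the WT panobinostat sample lies below the WT vehicle sample.

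The make-up of the mature DC-like class differed between samples. Cluster 8 held 23.43, 23.35 and 2.783% of mature DC-like cells in leukemia panobinostat 1, leukemia panobinostat 2 and WT panobinostat. In leukemia vehicle 1, leukemia vehicle 2 and WT vehicle it held 34.85, 25.57 and 6.633%. The part of this share in the comparisons of leukemia with WT was not tested. Cluster 6, with the highest H2-Ab1 of the 4 large clusters, held 26.4, 15.5 and 12.7% of mature DC-like cells in leukemia panobinostat 1, leukemia panobinostat 2 and WT panobinostat, and 23.8, 26.7 and 39.1% in leukemia vehicle 1, leukemia vehicle 2 and WT vehicle. In leukemia the share of cluster 6 overlapped between treatments, while class H2-Ab1 was higher in both panobinostat samples. In cluster 6 itself H2-Ab1 was 5669, 5707 and 4854 CPM in the panobinostat samples and 5155, 5647 and 4958 CPM in the vehicle samples, in the same order. In cluster 4 it was 1735, 1588 and 2062 CPM, against 1114, 884 and 1529 CPM. Cluster 9 had 3226, 3636 and 1902 CPM, against 1758, 1843 and 1555 CPM.

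In clusters 4, 8 and 9 every panobinostat sample lay above each vehicle sample of the same disease state, WT included, although 16 cells stood behind WT panobinostat in cluster 8. With the 4 large clusters given equal weight, the panobinostat minus vehicle difference of H2-Ab1 was 0.54 (log2 CPM ratio) in place of 0.18 on class sums, that of H2-DMb2 0.81 in place of 0.11 and that of Ciita 0.54 in place of −0.22. H2-Ob went the other way, with −0.44 in place of 0.11. The leukemia minus WT difference of treatment effects was 0.44 in place of 0.73 for H2-Ab1 and 0.57 in place of 1.20 for H2-DMb2. This weighting was chosen after the values had been seen and has no test, and how many cells of a cluster each sample yields cannot be told apart here from levels per cell in the class sums.

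**Figure D5:**
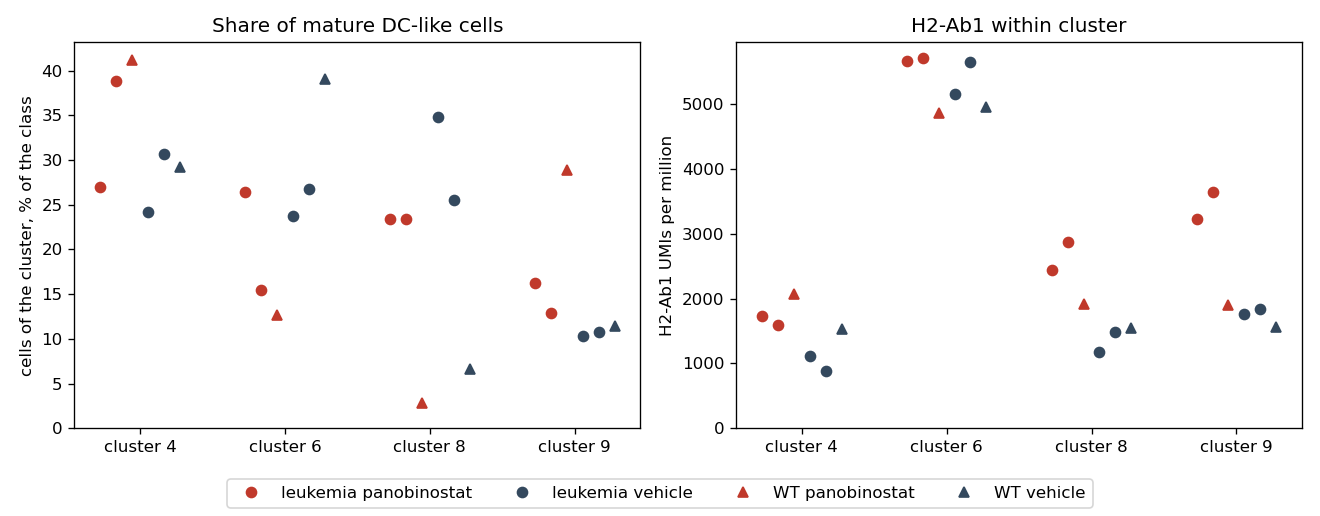
For the 4 large mature DC-like clusters, the left plot gives each cluster's share of the class in percent and the right plot its H2-Ab1 CPM, with 1 point per hashed sample. Cluster 6 holds 39.1% of mature DC-like cells in WT vehicle and 12.7% in WT panobinostat, while its H2-Ab1 lies between 4854 and 5707 in all 6 samples.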

How the data were processed

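Per the submitters' processing notes, the authors used Cell Ranger 3.1.0 and Seurat 3.1.0 with the mm10 (GRCm38) build, and deposited 1 matrix of raw UMI counts per gene, antibody tag and hashtag for 38717 barcodes. The genes, classes and lists were chosen with earlier results of these data known. The genes named are the 10 members, pathway genes that were called, and the 5 genes most alike by correlation.

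A cell was given to a hashed sample when exactly 1 of 6 hashtags passed the 99% quantile of a negative binomial fitted to the k-means cluster (of 7) lowest for that tag, which held for 23542 barcodes. Cells with under 500 genes or over 10% mitochondrial UMIs were left out, as were 2985 cells (13.32%) with a doublet score above 0.5 among 100 neighbours, a form of score adopted after a first one had marked almost no cells. The remaining 19430 cells were clustered (2000 variable genes without the members and pathway genes, 30 principal components, 15 neighbours, Leiden resolution 1) and clusters were named from marker lists. Unnamed clusters held 21.47% of cells.

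UMI counts were summed per class and hashed sample (at least 10 cells) and tested with edgeR 4.0.16 in R 4.3.3 (TMM, filterByExpr, quasi-likelihood, Benjamini-Hochberg adjustment over all genes tested). Sums held 133348 to 13185121 UMIs. Class fits had the hashed sample as a block. Condition fits had treatment and disease state, 6 sums and 3 residual degrees of freedom. Ratios were compared by exact paired sign-flip tests. Intervals cover the spread between sums, not animals. Alternatives were DESeq2 1.42.0, other size factors, no count filter, thinning to 2000 UMIs, doublets kept, another hashtag call, other clusterings and each hashed sample left out. Fits were tested on simulated data, with criteria set after an earlier version with 1 fixed dispersion had missed its bar. The promoter patterns, the ratios with their tests, the equal cluster weights, the alternatives of the interaction fits and CPM scaling between classes were chosen after the values had been seen. H2-Ea-ps and Ifi30 were not analysed here. The values of 1 pathway gene are not reported here.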

Additional observations from a re-analysis of the deposited data

Results flagged for a closer look

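The treatment difference, panobinostat over vehicle, differed between leukemia and WT by the interaction test of edgeR for 3 genes in pDC-like cells. The difference of log2 fold changes, leukemia minus WT, was 0.414 for H2-Ab1, 0.398 for H2-Aa and 0.31 for Cd74. For each, both leukemia panobinostat samples lay above both leukemia vehicle samples, and WT panobinostat, with 36 cells, lay below WT vehicle. Without leukemia vehicle 1 the values were 0.397, 0.403 and 0.296 for H2-Ab1, H2-Aa and Cd74, and without leukemia vehicle 2 they were 0.403, 0.366 and 0.294, none of them called.

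In mature DC-like cells the same test called H2-DMb2 (1.162) and H2-Ab1 (0.66). DESeq2 gave 1.155 and 0.66, neither called. Without leukemia panobinostat 1 H2-Ab1 was 0.64 and not called. With equal weight for the 4 large clusters the differences were 0.57 for H2-DMb2 and 0.439 for H2-Ab1. The share of cluster 6 in the class was 26.4 and 15.5% in leukemia panobinostat 1 and 2 against 23.8 and 26.7% in leukemia vehicle 1 and 2, and 12.7% in WT panobinostat against 39.1% in WT vehicle. The part of these shares in the test was not tested.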

How the results depend on the processing

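Between classes, 748 values of the 52 called members kept their call under the alternatives, 32 lost it and none reversed. Keeping doublets changed counts of members most. It gave 1 higher in pDC-like against cDC1-like, 1 higher in cDC1-like relative to cDC2-like, 5 lower in mature DC-like against cDC2-like and 4 lower in B cell-like against pDC-like cells. Leiden resolution 0.5 and list genes in the clustering each left 1 higher in the cDC1-like to cDC2-like comparison. The 2 lower in B cell-like against pDC-like cells became 1 with RLE size factors, DESeq2, thinning, the ratio hashtag call, Leiden resolution 2 and list genes in the clustering, and 1 to 3 with a hashed sample left out. The H2-DMb1 share was 59.7% (doublets kept) and 43.4% (Leiden resolution 2) in mature DC-like cells and 24.9% (thinned) in B cell-like cells.

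For panobinostat against vehicle, where 0 members were called, pDC-like cells had 1 higher without the count filter, 2 with doublets kept, 3 in leukemia samples alone and 0 to 4 with a sample left out. In cDC2-like cells 2 were lower in leukemia samples alone and 0 to 2 with a sample left out. In mature DC-like cells 4 were higher without the count filter, 3 in leukemia samples alone and 0 to 4 with a sample left out. Samples of the same replicate number correlated by −0.027 to 0.179 over 2 pairs, which does not establish pairing. With the replicate block in leukemia samples alone the counts were 4 higher in pDC-like, 2 lower in cDC2-like and 6 higher in mature DC-like cells.

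For leukemia against WT, the 6 lower in pDC-like cells became 1 by DESeq2, 3 with the ratio hashtag call and 0 to 6 with a sample left out. In cDC1-like cells the 4 lower became 1 by DESeq2 and 2 to 5 with a sample left out, with 0 to 1 higher. In cDC2-like cells the 2 higher became 0 by DESeq2, thinning and the ratio call, and 0 to 5 with a sample left out. In mature DC-like cells 2 were lower without the count filter, 5 with doublets kept, 2 at Leiden resolution 2, and 0 to 5 lower and 0 to 1 higher with a sample left out. In B cell-like cells 1 was higher with the ratio call and 0 to 3 with a sample left out.

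For the interaction, the 3 higher in pDC-like cells became 0 by DESeq2, with doublets kept and with the ratio call, and 0 to 4 with a sample left out. In cDC1-like cells 1 was higher without the count filter and at Leiden resolution 0.5, and 0 to 1 with a sample left out. In cDC2-like cells 0 to 1 were lower with a sample left out. In mature DC-like cells the 2 higher became 1 with RLE size factors and with doublets kept, 0 by DESeq2, the ratio call, Leiden resolution 2 and list genes in the clustering, 5 at Leiden resolution 0.5, 7 without the count filter and with thinning, and 1 to 7 with a sample left out. The causes were not tested. WT had 1 sample per treatment, so its values in these fits assume a spread like that of the leukemia samples. B cell-like sums held 133348 to 615010 UMIs and had the largest spread between samples (biological coefficient of variation 21.13%).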
